A study of Mus musculus with 15 samples.

Results

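Absorption of salt and of the short-chain acids made by gut bacteria is carried by a small set of membrane proteins of the colon surface cell, and 10 of their genes were followed here across normal, mutant and tumour colon of mice. They are the sodium-proton exchangers Slc9a2 (NHE2) and Slc9a3 (NHE3), the anion exchangers Slc26a2 and Slc26a3 (DRA), and the 3 subunits of the epithelial sodium channel ENaC, Scnn1a, Scnn1b and Scnn1g. With them stand the short-chain acid carriers Slc5a8 (SMCT1) and Slc16a1 (MCT1) and the basolateral sodium-potassium-chloride cotransporter Slc12a2 (NKCC1). The genes were named by their function, and every probe set annotated to one of these symbols and to no other was taken. That gave 10 of the 18193 genes and 19 of the 34945 probe sets with a single symbol in the table. The brightest probe set on average over the 15 arrays represented each gene, and 5 of the genes had further probe sets, 9 in all, which are given beside it.

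RNA was measured on 15 Affymetrix Mouse430_2 arrays, 3 in each of 5 groups of male mice aged 3 months, littermates of a mixed C57BL/6 and 129 background. The groups were tumour tissue and adjacent normal tissue of double mutant colon (APC+/-/Olfm4-/-), colon of Olfm4 mutant mice (APC+/+/Olfm4-/-), colon of APC mutant mice (APC+/- with both copies of Olfm4) and colon of wild type mice (APC+/+/Olfm4+/+). The labels do not say which Apc allele was carried, how Olfm4 was inactivated, or from which stretch of the colon each piece came. The design text gives 3 mice to each category. In the titles, however, the double mutant arrays bear only 2 animal numbers, and 1 animal supplied 2 of the 3 arrays of tumour and of adjacent tissue. Olfm4 mutant replicate 3 has a title number made of digits from both other mice of that genotype. For these reasons p-values describe the variation among these samples, some of it perhaps technical.

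In the colon surface epithelium, sodium enters through apical NHE2 and NHE3 in exchange for protons while DRA takes up chloride in exchange for bicarbonate, so that salt is absorbed without net charge. In the distal colon ENaC adds an electrogenic route for sodium that aldosterone controls through the mineralocorticoid receptor. Butyrate and its relatives, the main fuel of colon surface cells, enter through SMCT1 together with sodium and through MCT1 together with protons. NKCC1 lies on the opposite, basolateral side and loads crypt cells with chloride that leaves through the channel CFTR during secretion.

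Values are deposited log2 values from robust multi-array averaging, so a difference of 1 is a doubling. They serve to compare arrays for one probe set, and the levels of different probe sets cannot be compared. Tests are from limma across all genes, called at a Benjamini-Hochberg adjusted p under 0.05, and standard errors (SE) belong to the modelled log2 difference, 3 arrays in each group.

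Technical measures moved with the groups. The difference between the 3′ and 5′ probe sets of 4 bacterial control RNAs averaged 5.01 ± 0.255 (SD, n = 3) on the log2 scale in tumour arrays, 4.10 ± 0.30 in adjacent, 2.64 ± 0.525 in Olfm4 mutant, 2.16 ± 0.203 in APC mutant and 1.99 ± 0.083 in wild type arrays. The same difference for Gapdh averaged 4.57, 3.97, 1.496, 0.663 and 0.589 in those groups. Array numbers ran in 1 block per group, so this gradient, the order of the arrays and the group cannot be told apart. With the bacterial difference as a covariate, 5 of the 10 genes were called in tumour against adjacent tissue and 0 in tumour or adjacent tissue against wild type, where it left 1 and 0 of all 18193 genes called. The share of all genes that it left called in tumour against adjacent tissue is not given here, so the 5 have no background beside them.

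Tumours of double mutant mice expressed 7 of the 10 transporter genes less than the adjacent tissue and 1, Slc9a3, more. The lowest relative to adjacent tissue were Slc26a3, Slc5a8, Slc9a2, Scnn1g and Slc26a2, and Scnn1a and Slc16a1 were lower as well. Scnn1b and Slc12a2 did not pass the test. Over all genes 13.8% were called lower and 14.3% higher in this comparison, and the median difference of the 10 genes was -2.11 against 0.0019 over all genes. The arrays of the 2 tissues did not overlap for any of the 10 genes, with 22.3% of all genes wholly lower and 23.6% wholly higher in tumours. Because these are whole tissue pieces, fewer cells of a type and less RNA per cell cannot be told apart.

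**Figure D1:**
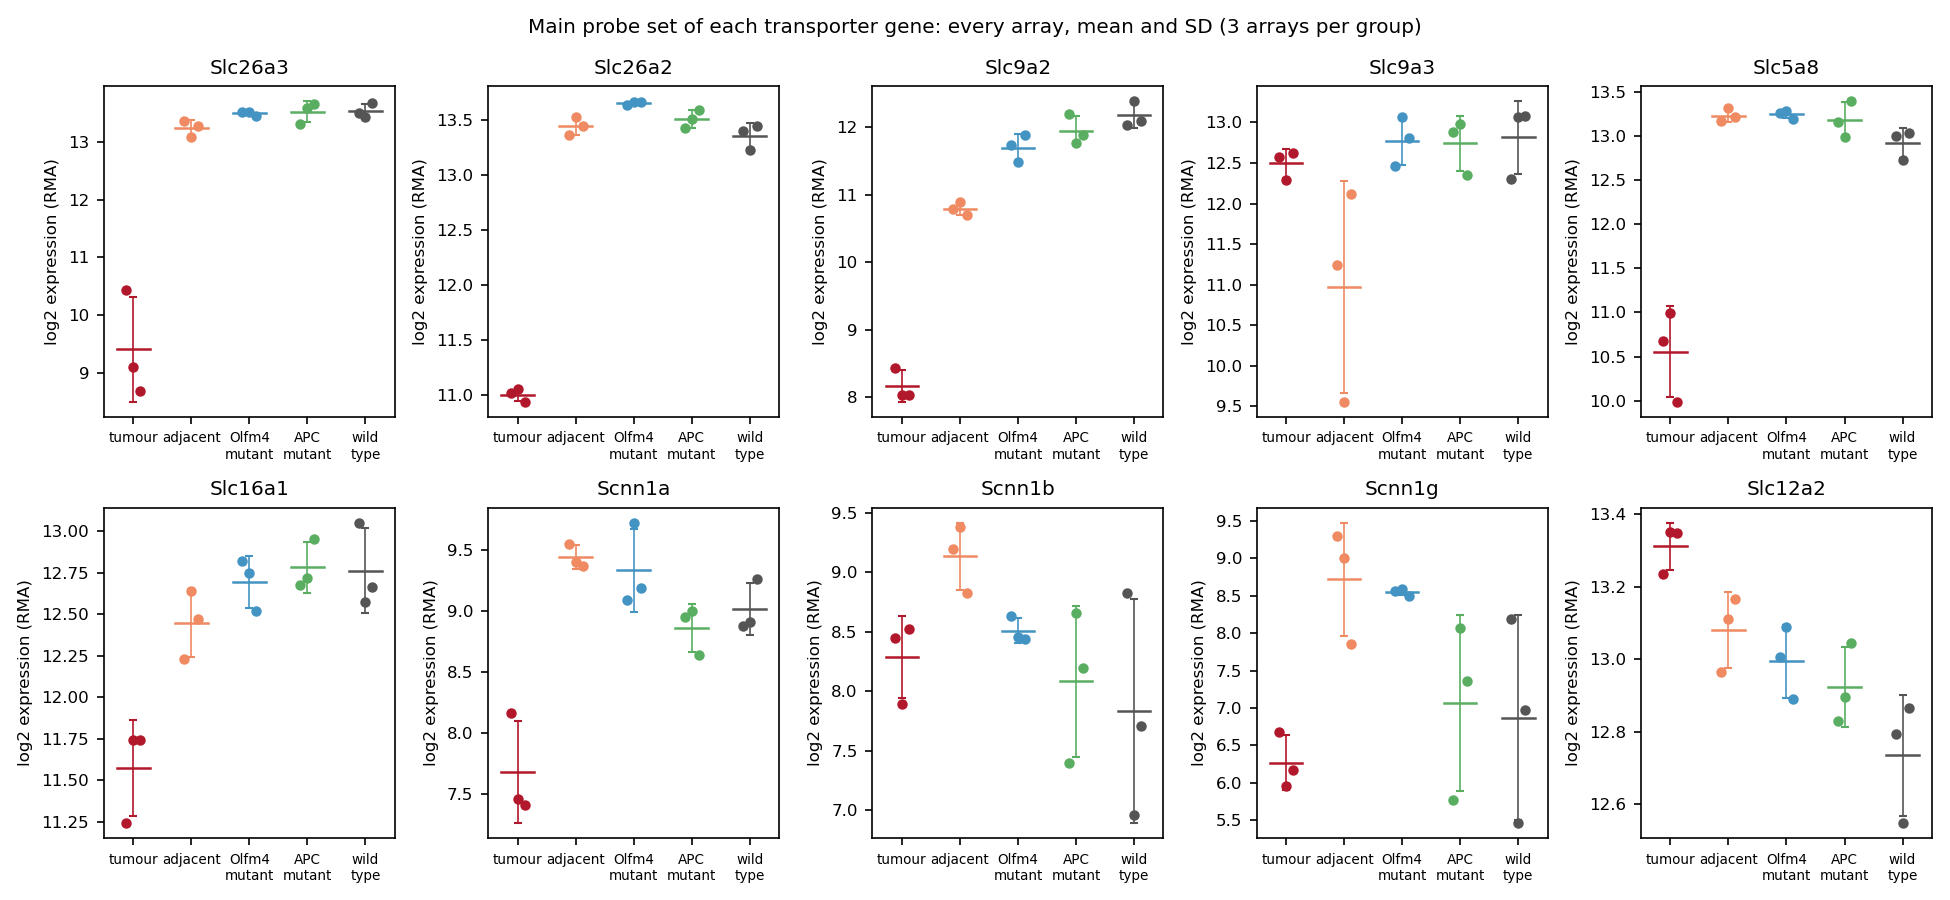
Deposited log2 values of the representative probe set of each of the 10 transporter genes (1 panel a gene) on all 15 arrays, with groups on the horizontal axis and the mean and SD of 3 arrays drawn over the points. The tumour points of Slc26a3 lie between 8.69 and 10.43, below all other arrays of that gene, and those of Slc9a3 lie between 12.29 and 12.62, above the 3 adjacent arrays.

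Cell type markers moved in the same comparison. Of 10 epithelium markers 6 were lower in tumours and none higher (median -0.45), with Cdx2 at -2.74 (adjusted p = 2.3e-05) and the adhesion molecules Epcam at -0.12 (adjusted p = 0.33) and Cdh1 at 0.0019 (adjusted p = 0.99). The summed level of these markers ran from 16.45 to 16.62 in tumours and from 16.80 to 16.89 in adjacent tissue on the log2 scale. All 10 smooth muscle markers were lower in tumours (median -3.43), with summed levels from 12.59 to 13.99 in tumours and from 15.49 to 15.89 in adjacent tissue. All 4 measured B cell markers were lower, 4 of 8 myeloid markers were higher, and 4 of 7 measured enteric neuron and glia markers were lower. Of the remaining lists, 1 of 6 fibroblast markers was higher and 1 lower, 3 of 5 measured small intestine markers were lower, and none of 5 endothelial markers or 6 posterior Hox genes was called. In wild type colon the summed level was from 16.98 to 17.14 for the epithelium markers and from 12.81 to 14.11 for the posterior Hox genes. No marker's level can be read as 0 on this scale, and the part of cell makeup in the transporter differences was not tested.

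Slc26a3, whose loss causes congenital chloride diarrhoea in humans, showed the largest difference of the 10 genes. Its representative probe set stood at 10.43, 9.10 and 8.69 in the tumours, at 13.36, 13.08 and 13.27 in adjacent tissue, at 13.52, 13.52 and 13.46 in Olfm4 mutant, at 13.31, 13.59 and 13.66 in APC mutant and at 13.50, 13.42 and 13.67 in wild type colon. The 12 arrays without tumour lay within a narrow band near the top of the scale, and the 3 tumours lay far below it and apart from each other. The tumour value was 14.2-fold lower than in adjacent tissue (log2 -3.83, SE 0.32, adjusted p = 3.0e-06) and was -4.13 against wild type (adjusted p = 7.1e-07).

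The promoter windows of Slc26a3 and Slc5a8 are shown because they belong to the 2 genes whose representative probe sets differed most between tumour and adjacent tissue. Both are from RefSeq on GRCm38.p6, plus strand, 250 bases before to 50 after an annotated start site. They lie at chr12:31437969-31438268 for Slc26a3 and chr10:88885742-88886041 for Slc5a8. In RefSeq the Slc26a3 gene as a whole begins at 31433142, before its window, whereas Slc5a8 begins at 88885992, within its window. Capitals mark the only match found, AGAACA on the plus strand.
Slc26a3: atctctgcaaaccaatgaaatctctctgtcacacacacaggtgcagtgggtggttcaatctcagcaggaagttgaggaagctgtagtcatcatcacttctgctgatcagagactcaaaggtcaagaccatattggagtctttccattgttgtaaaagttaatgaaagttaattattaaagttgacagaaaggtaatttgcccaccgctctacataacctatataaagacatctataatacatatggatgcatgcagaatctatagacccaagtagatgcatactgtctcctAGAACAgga
Slc5a8: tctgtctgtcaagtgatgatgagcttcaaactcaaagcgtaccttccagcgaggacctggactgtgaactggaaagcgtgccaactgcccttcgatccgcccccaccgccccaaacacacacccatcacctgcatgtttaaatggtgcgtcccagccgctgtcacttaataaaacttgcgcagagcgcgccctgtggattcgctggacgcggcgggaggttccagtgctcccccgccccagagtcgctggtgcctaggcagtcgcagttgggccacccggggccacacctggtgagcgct
Windows were given for 6 of the 10 genes (Slc9a3, Slc26a3, Scnn1b, Scnn1g, Slc5a8 and Slc16a1). They were searched on both strands for CTTTGAT (the TCF/LEF core, the site of the Wnt effectors), CAAAGTC (HNF4A), TTTATNG (CDX2) and TGTTCT (a hexamer bound by steroid receptors). The AGAACA of Slc26a3 is TGTTCT read on the minus strand, and it starts 41 bases past the start site on which the RefSeq window is set. No other match lay in the 6 windows. Over 27025 mouse promoter windows of the same length, 3.72% held CTTTGAT, 4.36% CAAAGTC, 11.3% TTTATNG and 19.0% TGTTCT. The Slc26a3 window had 39.3% G and C, against 60.7% in Slc5a8.

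All 4 Slc26a3 probe sets were lower in tumours than in adjacent tissue. Probe set 1421445_at stood at 7.25, 5.56 and 5.61 in tumours and at 11.90, 11.13 and 11.20 in adjacent tissue (log2 -5.27, SE 0.36, adjusted p over all probe sets = 1.1e-06). Probe set 1453151_at differed by -5.74 (SE 0.76, adjusted p = 0.00016) and 1427547_a_at by -2.18 (SE 0.28, adjusted p = 0.00012). Against wild type colon the probe sets parted in adjacent tissue. The representative one lay below every wild type array without passing the test (log2 -0.30, SE 0.32, adjusted p = 0.53), while 1427547_a_at, at 7.57, 7.39 and 6.95 in adjacent tissue and 10.05, 10.08 and 10.56 in wild type colon, was 7.60-fold lower (log2 -2.93, SE 0.28, adjusted p = 9.0e-05). Probe set 1421445_at was also lower (log2 -1.27, adjusted p = 0.022), a call lost without wild type replicate 3 (adjusted p = 0.066), adjacent replicate 2 (0.079) or adjacent replicate 3 (0.077). Probe set 1453151_at stood at 8.32, 9.88 and 10.83 in wild type colon and at 8.17, 11.49 and 11.56 in APC mutant colon, so 1 array of each group lay well below the others, and it was not called in adjacent against wild type (log2 1.09, SE 0.76, adjusted p = 0.34).

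Slc26a2, a sulfate and chloride exchanger of the apical membrane, repeated this. Its representative probe set stood at 11.01, 11.05 and 10.94 in tumours and at 13.37, 13.53 and 13.44 in adjacent tissue, and it lay between 13.23 and 13.67 on the 9 other arrays. The tumours were 5.44-fold lower than adjacent tissue (log2 -2.44, SE 0.09, adjusted p = 1.7e-08), the tightest difference of the 10 genes. Probe set 1443882_at differed by -3.32 (SE 0.22, adjusted p = 8.9e-07) and 1421145_at by -1.10 (SE 0.24, adjusted p = 0.0065). Adjacent tissue and wild type colon overlapped for the representative probe set (log2 0.09, SE 0.09, adjusted p = 0.52), and the others were lower in adjacent tissue. Probe set 1443882_at stood at 10.03, 10.59 and 10.24 in adjacent tissue and at 12.46, 12.17 and 12.35 in wild type colon (log2 -2.04, SE 0.22, adjusted p = 0.00014), and 1421145_at differed by -1.43 (SE 0.24, adjusted p = 0.0013).

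The probe sets of Slc26a3 and Slc26a2 that were lower in adjacent tissue than in wild type colon had their lowest group mean in tumours, then in adjacent tissue and then in Olfm4 mutant colon, the groups in falling order of the bacterial 3′ minus 5′ difference. Between APC mutant and wild type colon 1427547_a_at (means 10.28 and 10.23) and 1443882_at (12.34 and 12.33) did not continue that order. Arrays of 1 group did not follow it throughout. Within the Olfm4 mutant group, replicate 2 had the highest bacterial difference (3.25, against 2.29 in replicate 1 and 2.40 in replicate 3). The same array had the lowest value of its group for 1427547_a_at of Slc26a3 (8.94, against 9.94 and 9.76), for 1443882_at of Slc26a2 (11.25, against 12.12 and 11.94) and for 1417623_at of Slc12a2 (6.99, against 7.84 and 7.58). In tumours replicate 3 had the lowest bacterial difference (4.73, against 5.10 and 5.22) and also the lowest values of these probe sets (4.77, 6.77 and 7.20). In adjacent tissue replicate 3 had the highest difference (4.45) and the lowest 1427547_a_at (6.95), while 1443882_at and 1417623_at were lowest in replicate 1 (10.03 and 6.21). These ranks are a description. The part of the gradient in the disagreement of the probe sets was not tested and cannot be told apart from the group. With the bacterial difference as a covariate, the tumour-to-adjacent differences of the representative probe sets were -4.16 for Slc26a3 (adjusted p = 0.00033) and -2.51 for Slc26a2 (adjusted p = 8.9e-06).

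**Figure D2:**
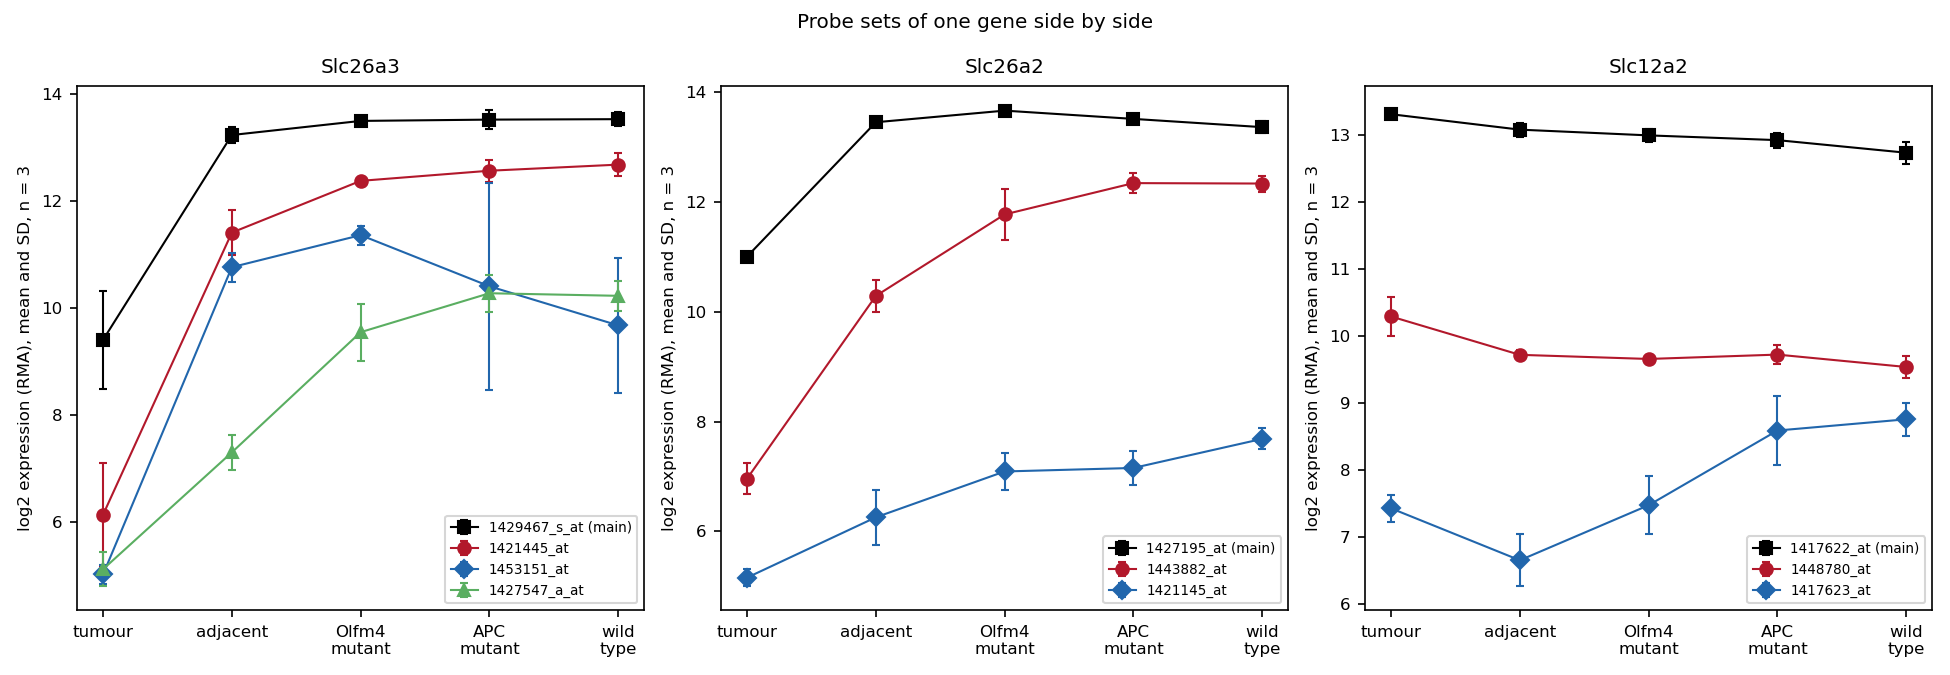
Deposited log2 values of every probe set of Slc26a3, Slc26a2 and Slc12a2 by group, with lines through the means of 3 arrays and bars of 1 SD. The probe sets of Slc26a3 and Slc26a2 all lie lowest in tumours, whereas in adjacent tissue the representative ones were not called against wild type (log2 -0.30 for Slc26a3 and 0.09 for Slc26a2) and 1427547_a_at and 1443882_at lie below it.

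The sodium-proton exchangers moved in opposite directions between tumour and adjacent tissue. Slc9a2 stood at 8.43, 8.03 and 8.04 in tumours, at 10.79, 10.89 and 10.69 in adjacent tissue, at 11.73, 11.49 and 11.88 in Olfm4 mutant, at 12.20, 11.77 and 11.89 in APC mutant and at 12.04, 12.39 and 12.10 in wild type colon. It was 6.18-fold lower in tumours than in adjacent tissue (log2 -2.63, SE 0.16, adjusted p = 3.1e-07). Adjacent tissue was itself lower than wild type colon (log2 -1.38, SE 0.16, adjusted p = 0.00030) and lower than APC mutant colon (log2 -1.16, adjusted p = 0.0015), with no overlap of arrays. Slc9a2 was called in both of these steps toward the tumour, which together made tumours 16.1-fold lower than wild type colon (log2 -4.01, SE 0.16, adjusted p = 6.8e-09). It has a single probe set on the array. With the bacterial difference as a covariate, Slc9a2 was at -2.37 in tumours against adjacent tissue (adjusted p = 0.00013). Against wild type it was then at -0.78 in adjacent tissue and at -3.15 in tumours, and neither was called.

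Slc9a3 stood at 12.57, 12.29 and 12.62 in tumours, at 11.24, 9.55 and 12.12 in adjacent tissue, at 12.46, 13.07 and 12.81 in Olfm4 mutant, at 12.89, 12.98 and 12.35 in APC mutant and at 12.30, 13.07 and 13.08 in wild type colon. Adjacent tissue was the group that stood apart, and its 3 arrays, 2 of them from 1 animal, lay far from each other. The tumours were 2.87-fold higher than adjacent tissue (log2 1.52, SE 0.48, adjusted p = 0.030), while their difference from wild type colon was within the error (log2 -0.32, SE 0.48, adjusted p = 0.61). Adjacent tissue was 3.59-fold lower than wild type (log2 -1.84, SE 0.48, adjusted p = 0.013) and lower than APC mutant colon (log2 -1.77, adjusted p = 0.025). The rise in tumours was lost when any of 4 arrays was left out. It was 0.81 without adjacent replicate 2 (adjusted p = 0.090), and the adjusted p was 0.073, 0.055 and 0.084 without tumour replicate 1, 2 or 3. The fall in adjacent tissue against wild type was -1.13 without adjacent replicate 2 (adjusted p = 0.047). That fall was not called with only the groups compared (adjusted p = 0.10). Nor was it called with APC mutant replicate 1 and wild type replicate 2 left out together (0.055). With the bacterial difference as a covariate the rise was 0.74 (adjusted p = 0.58), and the fall was -3.67 and not called. The other probe set, 1432771_at, lay low in all groups, with means from 4.18 in tumours to 4.60 in wild type colon. It was not called in tumours against adjacent tissue (log2 -0.05, SE 0.16, adjusted p = 0.89).

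Of the carriers of short-chain acids, Slc5a8 was the more strongly reduced. It stood at 10.68, 10.995 and 9.99 in tumours, at 13.17, 13.31 and 13.21 in adjacent tissue, at 13.26, 13.28 and 13.19 in Olfm4 mutant, at 13.15, 12.98 and 13.39 in APC mutant and at 13.003, 12.72 and 13.04 in wild type colon. The 12 arrays without tumour lay between 12.72 and 13.39, and the tumours were 6.38-fold lower than adjacent tissue (log2 -2.67, SE 0.20, adjusted p = 1.6e-06). Slc16a1 stood at 11.24, 11.74 and 11.74 in tumours and at 12.23, 12.64 and 12.47 in adjacent tissue, and from 12.52 to 13.05 on the other 9 arrays. It was 1.83-fold lower in tumours (log2 -0.87, SE 0.17, adjusted p = 0.0022), and its other probe set, 1446274_at, had a difference of -0.99 that did not pass the test (SE 0.35, adjusted p = 0.067). With the animal shared by tumour and adjacent arrays as a block, that probe set passed (adjusted p = 0.011), as it did with animal as a random block (0.017). Neither carrier was called in adjacent tissue against wild type (Slc5a8 0.31, adjusted p = 0.29, and Slc16a1 -0.32, adjusted p = 0.20).

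The ENaC subunits did not move as 1 unit. Scnn1a, the alpha subunit, stood at 8.16, 7.46 and 7.41 in tumours, at 9.56, 9.40 and 9.37 in adjacent tissue, at 9.09, 9.73 and 9.19 in Olfm4 mutant, at 8.95, 8.9996 and 8.64 in APC mutant and at 8.88, 8.91 and 9.26 in wild type colon. All tumour arrays lay below all others, 3.40-fold under adjacent tissue (log2 -1.77, SE 0.21, adjusted p = 5.5e-05) and 2.54-fold under wild type colon (log2 -1.34, SE 0.21, adjusted p = 0.00020). Adjacent tissue lay above every wild type array without passing the test (log2 0.42, adjusted p = 0.16).

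Scnn1g and Scnn1b, the gamma and beta subunits, lie beside each other on chromosome 7, with 1 predicted gene, Gm36848, between them, and varied together between arrays of the same group. Scnn1g stood at 6.67, 5.96 and 6.18 in tumours, at 9.30, 9.0003 and 7.85 in adjacent tissue, at 8.57, 8.58 and 8.50 in Olfm4 mutant, at 5.77, 8.07 and 7.36 in APC mutant and at 8.19, 5.46 and 6.97 in wild type colon. Scnn1b stood at 8.45, 7.89 and 8.52 in tumours, at 9.20, 9.38 and 8.83 in adjacent tissue, at 8.63, 8.46 and 8.44 in Olfm4 mutant, at 7.40, 8.66 and 8.20 in APC mutant and at 8.83, 6.95 and 7.71 in wild type colon. APC mutant replicate 1 and wild type replicate 2 were the lowest arrays of both genes among the tissues without tumour. The deviations of the 2 genes from their group means correlated at r = 0.937 over the 15 arrays, as a description.

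Scnn1g was 5.46-fold lower in tumours than in adjacent tissue (log2 -2.45, SE 0.65, adjusted p = 0.012), a call lost without adjacent replicate 1 (log2 -2.16, adjusted p = 0.051). Scnn1b had a difference of -0.85 (SE 0.40, adjusted p = 0.14). In adjacent tissue against wild type colon Scnn1b was 2.47-fold higher (log2 1.31, SE 0.40, adjusted p = 0.029) and Scnn1g had a difference of 1.85 (SE 0.65) with an adjusted p of 0.050 that just missed the threshold. Both values leaned on wild type arrays. The Scnn1b difference was 0.87 without wild type replicate 2 (adjusted p = 0.12), 1.25 without wild type replicate 3 (0.073), 1.28 without adjacent replicate 1 (0.069), 1.18 without adjacent replicate 2 (0.092), and 1.80 without wild type replicate 1. Scnn1g passed at 2.50 without wild type replicate 1 (adjusted p = 0.011) and at 2.28 without adjacent replicate 3 (adjusted p = 0.041), and it was 1.14 without wild type replicate 2 (adjusted p = 0.20). In tumours against wild type neither was called (Scnn1b 0.46, adjusted p = 0.38, and Scnn1g -0.60, adjusted p = 0.47), although Scnn1b passed at 0.95 without wild type replicate 1 (adjusted p = 0.034).

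Hoxd10, a posterior homeobox gene chosen after the values were seen, was low on the same arrays. It stood at 11.54, 10.85 and 10.62 in tumours, at 11.53, 12.02 and 10.52 in adjacent tissue, at 11.21, 11.03 and 11.23 in Olfm4 mutant, at 8.29, 10.64 and 11.40 in APC mutant and at 10.81, 6.18 and 8.63 in wild type colon. Its deviations from the group means correlated at r = 0.895 with those of Scnn1b and at 0.921 with those of Scnn1g over the 15 arrays. Of all genes 0.115% had a higher correlation with Hoxd10 than Scnn1b, and 0.0605% a higher one than Scnn1g. Because Hoxd10 was chosen from these same values, the ranks are a description and carry no test. Among the 8 other transporters r was 0.698 for Slc26a2 (3.12% of genes higher) and 0.492 for Slc12a2, from 0.276 to 0.439 for Slc26a3, Slc5a8 and Slc16a1, -0.013 for Scnn1a, -0.402 for Slc9a2 and -0.491 for Slc9a3. The other posterior Hox genes were divided. Hoxd11 gave 0.888 with Scnn1b and 0.910 with Scnn1g, Hoxd13 0.867 and 0.895, and Hoxb13 0.579 and 0.466, whereas Hoxa13 gave -0.184 and -0.316 and Hoxd12 -0.263 and -0.185. The stretch of colon sampled is not in the labels, and its part in these values was not tested. With APC mutant replicate 1 and wild type replicate 2 left out, the beta subunit passed in tumour against adjacent tissue at an unchanged -0.85 (adjusted p = 0.041). The gamma subunit then passed in tumour against wild type (log2 -1.31, adjusted p = 0.031), and 1 rather than 4 of the 10 genes was called in adjacent tissue against wild type.

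**Figure D3:**
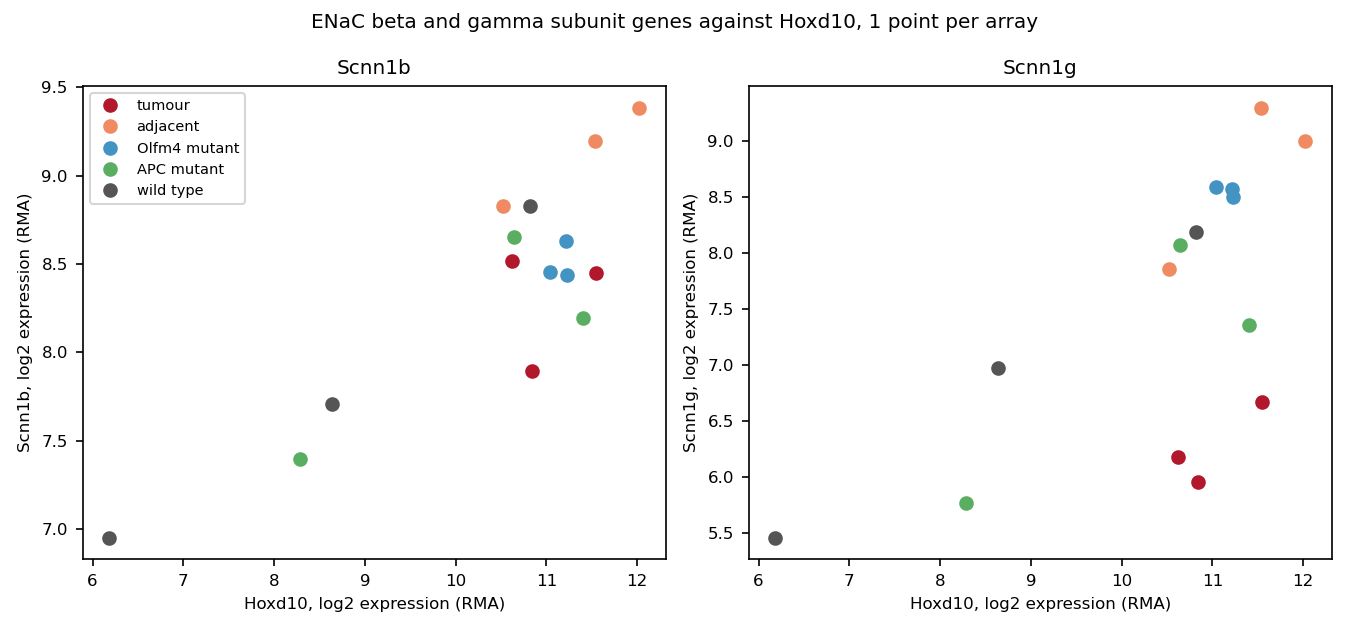
Deposited log2 values of Scnn1b and Scnn1g (vertical axes) against Hoxd10 (horizontal axis), 1 point for each of the 15 arrays, marked by group. Wild type replicate 2, at 6.18 for Hoxd10, has the lowest value of both genes, and the 3 tumours lie low for Scnn1g at Hoxd10 values from 10.62 to 11.54.

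The RefSeq promoter windows of these neighbouring genes are shown since the subunits varied together. Both lie on the plus strand of GRCm38.p6, at chr7:121734229-121734528 for Scnn1g and chr7:121864788-121865087 for Scnn1b, and neither held a match to the 4 motifs, so no letters are in capitals.
Scnn1g: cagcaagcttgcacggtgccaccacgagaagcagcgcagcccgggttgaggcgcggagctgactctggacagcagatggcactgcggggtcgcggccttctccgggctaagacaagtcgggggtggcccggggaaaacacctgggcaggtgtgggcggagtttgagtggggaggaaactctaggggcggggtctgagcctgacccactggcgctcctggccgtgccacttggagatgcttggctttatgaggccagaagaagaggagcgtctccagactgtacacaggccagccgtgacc
Scnn1b: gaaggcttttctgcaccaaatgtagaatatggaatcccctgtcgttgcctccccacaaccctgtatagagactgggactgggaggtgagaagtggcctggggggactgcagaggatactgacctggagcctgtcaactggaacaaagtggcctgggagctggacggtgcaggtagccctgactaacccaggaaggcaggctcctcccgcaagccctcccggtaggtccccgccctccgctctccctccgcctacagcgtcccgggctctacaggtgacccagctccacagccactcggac
G and C made up 64.7% of the Scnn1g window and 61.7% of the Scnn1b window.

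Slc12a2 stood at 13.23, 13.35 and 13.35 in tumours, at 12.96, 13.11 and 13.17 in adjacent tissue, at 13.01, 13.09 and 12.89 in Olfm4 mutant, at 12.83, 12.90 and 13.05 in APC mutant and at 12.79, 12.55 and 12.87 in wild type colon. It was the only one of the 10 genes whose representative probe set was highest in tumours, 1.49-fold above wild type colon (log2 0.58, SE 0.11, adjusted p = 0.00088), and its difference from adjacent tissue was 0.23 (SE 0.11, adjusted p = 0.15). With each array centred on its median the rise against wild type was 0.32 (adjusted p = 0.056). With the bacterial difference as a covariate it was 0.10 (adjusted p = 0.99). The group means of Slc12a2 fell from tumours through adjacent tissue, Olfm4 mutant and APC mutant to wild type colon, as the bacterial difference did. Adjacent tissue was 0.34 higher than wild type (SE 0.11, adjusted p = 0.036). This call was lost without wild type replicate 2 (log2 0.25, adjusted p = 0.15), adjacent replicate 2 (0.095) or adjacent replicate 3 (0.12), with animal as a random block (0.060), and with each array centred on its median (log2 0.14, adjusted p = 0.49). It was also lost with the bacterial difference as a covariate (log2 0.013).

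The 3 probe sets of Slc12a2 did not move alike. In tumours against adjacent tissue 1448780_at was 0.57 higher (SE 0.14, adjusted p = 0.012), and 1417623_at had a difference of 0.78 (SE 0.28, adjusted p = 0.075), which passed with animal as a random block (adjusted p = 0.033). Against wild type, 1417623_at went the other way. It stood at 7.50, 7.58 and 7.20 in tumours, at 6.21, 6.94 and 6.80 in adjacent tissue, at 7.84, 6.99 and 7.58 in Olfm4 mutant and at 8.73, 9.01 and 8.52 in wild type colon. It was lower than wild type in tumours (log2 -1.33, adjusted p = 0.0019), in adjacent tissue (log2 -2.11, adjusted p = 0.00030) and in Olfm4 mutant colon (log2 -1.28, adjusted p = 0.020). The last of these was lost without wild type replicate 2 (adjusted p = 0.082), Olfm4 mutant replicate 2 (0.094) or Olfm4 mutant replicate 3 (0.053).

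**Figure D4:**
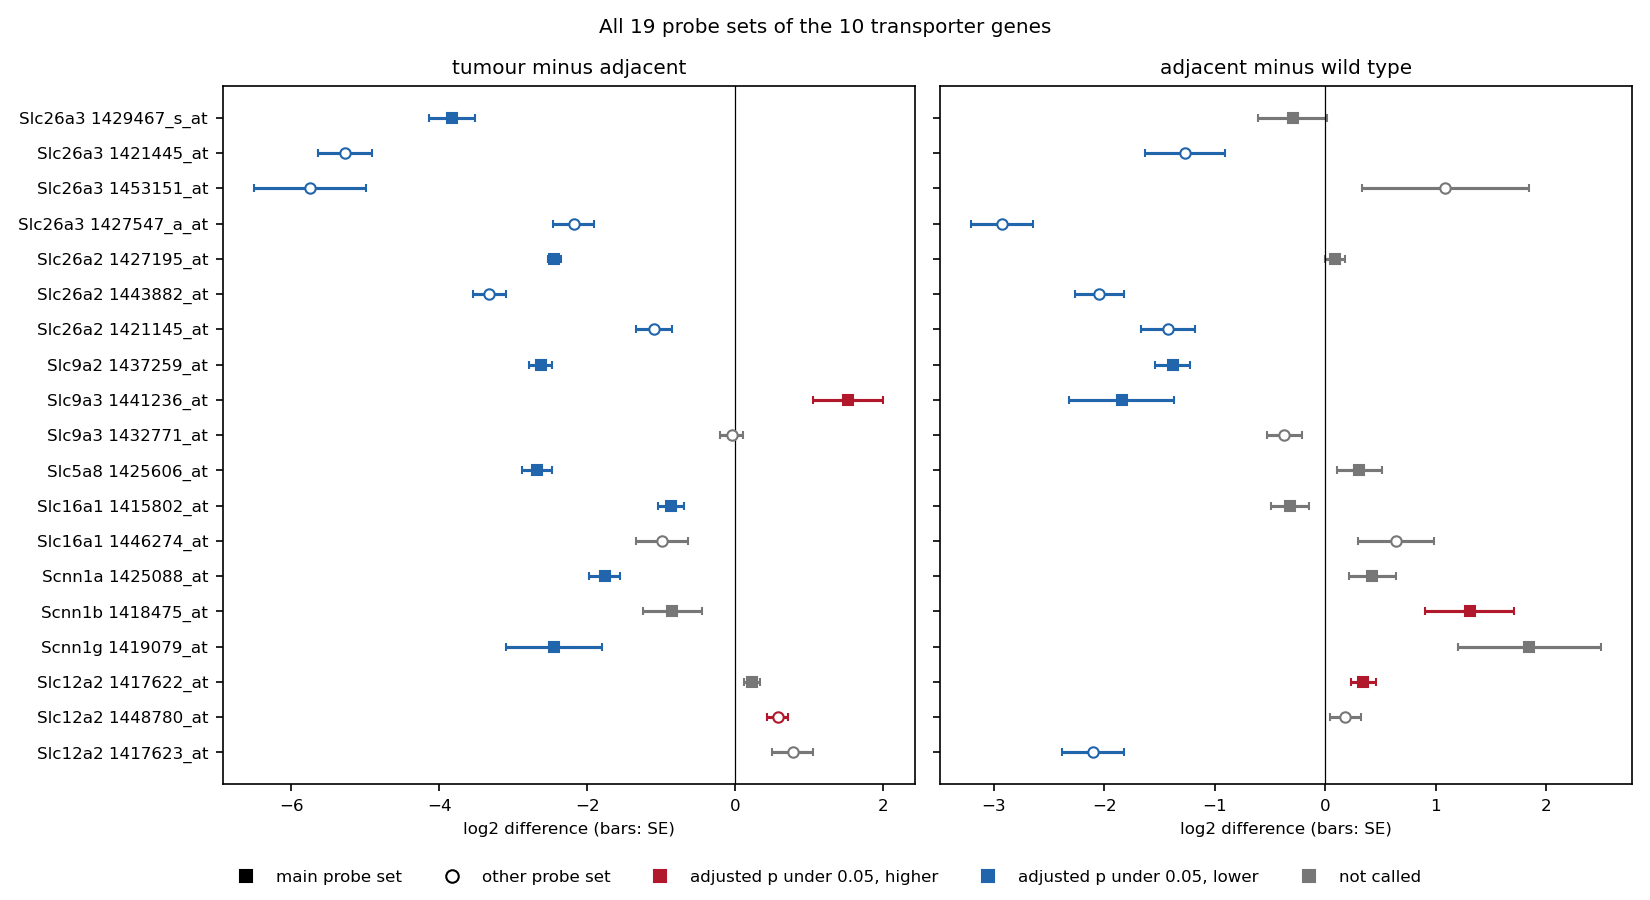
Log2 differences of all 19 probe sets for tumour minus adjacent tissue and for adjacent tissue minus wild type colon, with bars of 1 standard error from the fit. In tumour minus adjacent tissue the Slc26a3 probe sets run from -5.74 to -2.18, and in adjacent minus wild type the probe sets of Slc26a3, Slc26a2 and Slc12a2 lie on both sides of 0.

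The comparison of tumours with wild type colon takes in the mutations as well as the tumour. Slc26a3, Slc9a2, Slc5a8, Slc26a2, Scnn1a and Slc16a1 were lower and Slc12a2 was higher, with 20.1% of all genes called lower and 29.3% higher. Slc5a8 was 5.16-fold lower (log2 -2.37, SE 0.20, adjusted p = 1.7e-06), Slc26a2 5.11-fold (log2 -2.35, SE 0.09, adjusted p = 6.8e-09) and Slc16a1 2.28-fold (log2 -1.19, SE 0.17, adjusted p = 0.00011). The other Slc16a1 probe set, 1446274_at, was not called in tumours against wild type (log2 -0.35, SE 0.35, adjusted p = 0.46) or APC mutant colon (log2 -0.75, adjusted p = 0.10). Against Olfm4 mutant colon it was lower in tumours (log2 -1.17, adjusted p = 0.021). Against Olfm4 mutant colon 7 of the 10 genes were lower in tumours and 1 higher, with 18.6% and 21.1% of all genes. Against APC mutant colon 6 were lower and 1 higher, with 19.5% and 27.9% of all genes. All of these comparisons share the tumour arrays.

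Adjacent tissue of the double mutants differed from wild type colon in 4 of the 10 genes. Slc9a2 and Slc9a3 were lower and Scnn1b and Slc12a2 were higher, with 10.1% of all genes called lower and 17.7% higher. These counts lie near the shares of all genes and are not read as a result about the transporters. With only the groups compared, Slc9a3, Scnn1b and Slc12a2 were not called (adjusted p = 0.10, 0.10 and 0.13). Of the epithelium markers 4 of 10 were lower and none higher, and of the smooth muscle markers 2 of 10 were lower. Of the other cell types, 4 of 8 myeloid, 1 of 4 B cell and 2 of 5 small intestine markers were higher, and 2 of 7 enteric neuron and glia markers were lower. Of 6 fibroblast markers 3 were higher and 1 lower, of 5 endothelial markers 1 was higher and 3 lower, and of 6 posterior Hox genes 1 was higher and 1 lower. Their part in the transporter differences was not tested. The median difference of the 10 genes was 0.20 against 0.13 over all genes, and of the 9 further probe sets 5 were lower and none higher. Against APC mutant colon, in a comparison that shares the adjacent arrays, the exchangers Slc9a2 and Slc9a3 were lower in adjacent tissue, with 7.45% of all genes. Against Olfm4 mutant colon none of the 10 was called by limma (3 had an unadjusted p under 0.05), in a comparison that called 0.044% of all genes, and Slc9a2 came nearest (log2 -0.90, adjusted p = 0.053).

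The single mutations gave no call among the 10 genes. In APC mutant against wild type colon limma called 0 of the 10, none of which had an unadjusted p under 0.05, and 0 of the 18193 genes (0%, with 1324 at an unadjusted p under 0.05). The differences ran from -0.22 for Slc9a2 (SE 0.16) to 0.25 for Slc5a8 (SE 0.20). In Olfm4 mutant against wild type colon 0 of the 10 were called, 4 had an unadjusted p under 0.05, and 7.92% of all genes were called. Slc26a2 was nearest with 0.30 (SE 0.09, adjusted p = 0.067), then Slc9a2 with -0.48 (SE 0.16, adjusted p = 0.083), Scnn1g with 1.68 (SE 0.65, adjusted p = 0.13) and Slc12a2 with 0.26 (SE 0.11, adjusted p = 0.17). Without wild type replicate 1, Scnn1g (log2 2.34, adjusted p = 0.030) and Scnn1b (log2 1.18, adjusted p = 0.041) passed.

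Whether the effects of the mutations add on the log2 scale was tested by taking the difference of adjacent tissue from APC mutant colon and subtracting that of Olfm4 mutant from wild type colon. limma called 0 of the 10 genes and 0% of all genes, while 3 of the 10 and 1901 of all genes had an unadjusted p under 0.05. The 3 were Slc9a2 (log2 -0.68, SE 0.22, adjusted p = 0.40), Slc9a3 (log2 -1.73, SE 0.68, adjusted p = 0.45) and Slc26a2 (log2 -0.36, SE 0.13, adjusted p = 0.43).

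Ordered by group mean, the 10 genes gave 40 pairs of neighbouring groups, of which 7 were called. The pairs were set by sorting these same means, and the other genes were not ordered in this way, so the count has no share of all genes beside it. For 6 genes (Slc9a2, Slc26a2, Slc26a3, Scnn1a, Slc5a8 and Slc16a1) it was the step down to the tumour, the lowest group, and for Slc9a3 it was the step between tumours and adjacent tissue, its lowest group. No neighbouring pair of Scnn1b, Scnn1g or Slc12a2 was called. Of these, Scnn1g in Olfm4 mutant against APC mutant colon (log2 1.49, adjusted p = 0.32), Scnn1b in adjacent tissue against Olfm4 mutant colon (log2 0.63, adjusted p = 0.47) and Slc12a2 in tumour against adjacent tissue had arrays that did not overlap. In tumour against adjacent tissue 23.6% of all genes were wholly higher. For the other comparisons that share is not given here, so the lack of overlap is a description only. From low to high Slc9a2 had the order tumour, adjacent tissue, Olfm4 mutant, APC mutant and wild type, with means of 8.17, 10.79, 11.70, 11.95 and 12.17. These are the groups in falling order of the bacterial 3′ minus 5′ difference, and the part of that gradient was not tested apart from the group.

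Genes that work with these transporters were taken from 4 lists. Of 11 exchanger partners and scaffolds 8 were measured, and in tumours against adjacent tissue 4 were lower and 1 higher (median -0.45). The sodium-bicarbonate cotransporter Slc4a4 was 4.86-fold lower (log2 -2.28, SE 0.30, adjusted p = 0.00012), the exchanger cofactor Chp2 4.89-fold (log2 -2.29, SE 0.36, adjusted p = 0.00043), and the exchanger Slc9a8 2.07-fold (log2 -1.05, SE 0.20, adjusted p = 0.0016). Slc9a3r1, the scaffold NHERF1 that binds NHE3, was 0.53 lower (SE 0.16, adjusted p = 0.023). That call was lost without any of tumour replicates 1 and 3 and adjacent replicates 2 and 3, with adjusted p between 0.050 and 0.087. The gene that was higher, the scaffold Pdzk1 (log2 0.67, SE 0.23, adjusted p = 0.044), was not called with a block by animal (adjusted p = 0.051) or replicate number (0.065), nor without tumour replicate 1 (0.17) or 3 (0.060) or adjacent replicate 1 (0.14) or 3 (0.11). In adjacent tissue against wild type Chp2 (log2 -1.66, adjusted p = 0.0052) and the basolateral anion exchanger Slc4a2 (log2 -0.92, SE 0.19, adjusted p = 0.0037) were lower, and Pdzk1 was at -0.33 (adjusted p = 0.31).

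All 9 ENaC regulators were measured, and 7 were lower and none higher in tumours than in adjacent tissue (median -1.19). The mineralocorticoid receptor Nr3c2 lay 6.03-fold lower (log2 -2.59, SE 0.15, adjusted p = 2.3e-07), and Hsd11b2, the enzyme that keeps glucocorticoids from that receptor, 5.01-fold (log2 -2.32, SE 0.31, adjusted p = 0.00012). Usp2, a deubiquitinase, lay 4.70-fold lower (log2 -2.23, SE 0.27, adjusted p = 4.8e-05), and Sgk1, a kinase and aldosterone target that holds ENaC at the membrane, 2.29-fold (log2 -1.19, SE 0.21, adjusted p = 0.00083). In adjacent tissue against wild type 2 were lower, the channel-activating proteases St14 (log2 -1.39, SE 0.16, adjusted p = 0.00032) and Prss8 (log2 -1.35, SE 0.24, adjusted p = 0.0016), and Nr3c2 was at -0.40 (adjusted p = 0.057).

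Of 8 monocarboxylate partners and receptors 7 were measured, with 2 higher and 1 lower in tumours than in adjacent tissue (median 0.055). Slc16a3 (MCT4), the lactate exporter, was 3.76-fold higher (log2 1.91, SE 0.24, adjusted p = 7.4e-05) where Slc16a1 was lower, and Slc16a7 (MCT2) was 2.37-fold lower (log2 -1.24, SE 0.24, adjusted p = 0.0016). Hcar2, a receptor for butyrate and niacin, was 1.67-fold higher (log2 0.74, SE 0.18, adjusted p = 0.0077), and Emb, an accessory protein of these carriers, was at 0.45 (adjusted p = 0.064). Slc16a3 was already 1.92-fold higher in adjacent tissue than in wild type (log2 0.94, SE 0.24, adjusted p = 0.012). Bsg, the chaperone of MCT1, was 4.79-fold lower there (log2 -2.26, SE 0.29, adjusted p = 0.00039), and at 0.17 with the bacterial 3′ minus 5′ difference as a covariate. The butyrate receptor Ffar2 was at 0.87 (SE 0.63, adjusted p = 0.33).

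Of 16 genes of chloride secretion and basolateral transport 14 were measured, and 10 were lower and none higher in tumours than in adjacent tissue (median -0.50). Atp12a, the proton-potassium pump of the distal colon, lay 7.10-fold lower (log2 -2.83, SE 0.32, adjusted p = 3.2e-05), and Kcnma1, a potassium channel, 4.12-fold (log2 -2.04, SE 0.21, adjusted p = 1.9e-05). The chloride channels Clcn2 (log2 -1.92, SE 0.21, adjusted p = 2.5e-05) and Cftr (log2 -1.60, SE 0.26, adjusted p = 0.00050) were lower too. In adjacent tissue against wild type Stk39, the kinase that activates NKCC1, was 0.45 higher (SE 0.11, adjusted p = 0.0079). Clcn2 was 0.65 lower (adjusted p = 0.035) and the calcium-activated channel Ano1 0.48 higher (adjusted p = 0.044), and these 2 calls were each lost without any of 5 arrays. For Clcn2 these were wild type replicates 2 and 3 and all 3 adjacent arrays, and for Ano1 wild type replicates 1 and 2 and all 3 adjacent arrays. With each array centred on its median, Stk39 was at 0.25 (adjusted p = 0.22).

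**Figure D5:**
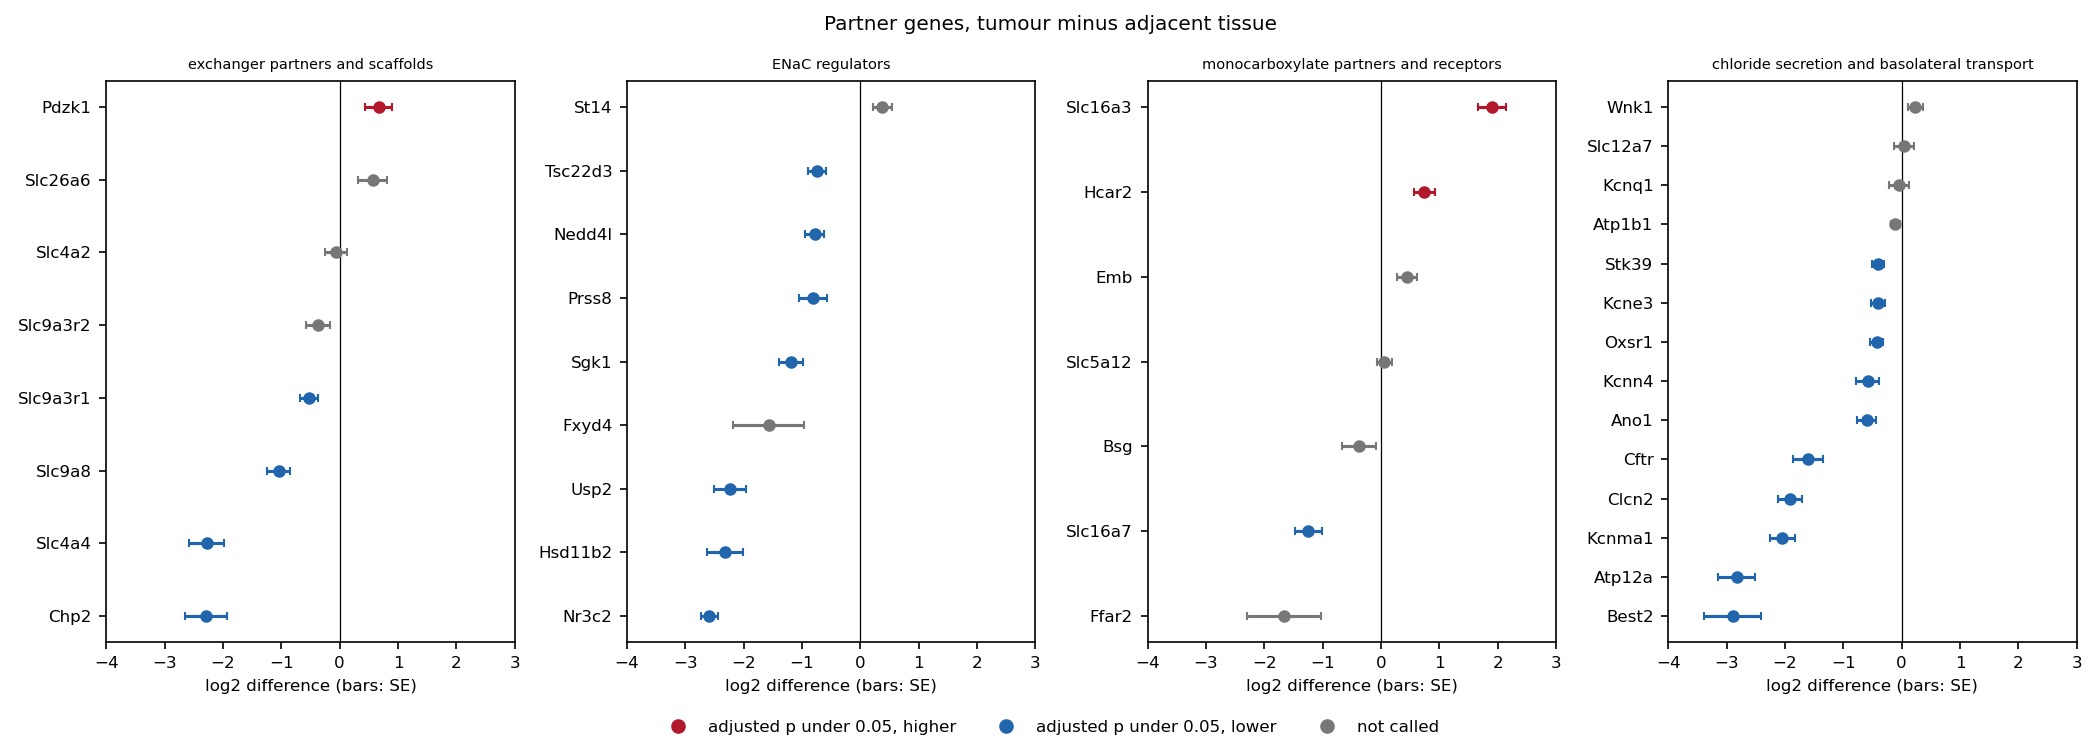
Log2 difference of tumour minus adjacent tissue for each measured gene of the 4 partner lists, with bars of 1 standard error and called genes marked. Nr3c2 at -2.59 is the most precise of the low ENaC regulators, and Slc16a3 at 1.91 stands highest in the monocarboxylate list.

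The genes whose log2 values followed each transporter most closely over the 15 arrays are given as a description. Arrays share group and the technical gradient, so these correlations carry no test. Taken on deviations from the group means, r of the named neighbours ran from 0.12 (Selenbp1 with Slc26a2) to 0.95 (Abcb1a with Slc26a3). For Car2 and Car4 with Slc26a2 it was 0.46 and 0.52. Car2 and Car4, carbonic anhydrases that hydrate carbon dioxide for salt absorption, were nearest to Slc26a2 (Pearson r = 0.992 for each), followed by Selenbp1 (0.990). Slc9a2 was followed by Ethe1 (0.994), the water channel Aqp8 (0.992) and Acad11 (0.992), and Slc26a3 by Cyp3a13 (0.996), the efflux pump Abcb1a (0.994) and Tgoln1 (0.993). Those of Slc5a8 were Abat (0.989), Tmem117 (0.988) and Styk1 (0.987), those of Slc16a1 Vsig10 (0.954), Nt5c3 (0.949) and Prkce (0.948), and those of Scnn1a Ginm1 (0.966), Egf (0.962) and Ccdc68 (0.962).

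The remaining transporters had other neighbours. Slc12a2 was nearest to Zfp2 (0.971), Cwf19l2 (0.965) and the transcription factor Sox4 (0.965). Scnn1b was nearest to Rgs4 (0.929), Akap9 (0.904) and Arhgap6 (0.873), and Scnn1g to Eef2k (0.943), Gulp1 (0.938) and the secreted Wnt antagonist Sfrp2 (0.922). Slc9a3 had the loosest neighbours, Csmd2os (0.858), Prom1 (0.840) and Wdr5 (0.803).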

How the data were processed

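Colon RNA was isolated with Trizol and hybridised as biotinylated cRNA, per the labels' protocols. The deposited values are log2 values made with RMA, and Partek 6.5 is named too, per the submitters' processing notes. RMA puts all arrays on 1 distribution, which takes out most of any shift common to the majority of genes. The genome build is not given in the sources used here. The lowest deposited value is 2.56 and the highest 14.96, array medians lie between 6.35 and 6.47, and the number of arrays limits the precision.

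Of 45101 probe sets 64 are controls, 34945 have 1 symbol in the platform annotation, 932 several and 9160 none, and only those with 1 were used. Each of 18193 genes was represented by its brightest probe set on average over the 15 arrays. limma 3.58.1 in R 4.3.3 (lmFit, eBayes) fitted 5 group means to all 15 arrays, with Benjamini-Hochberg adjustment over all genes, or over all probe sets that are not controls where a further probe set is given. The fit was tested on simulated data. The members, lists and alternatives were chosen with earlier results of these data known. Named genes were all members, up to 4 per list with the lowest adjusted p in tumour against adjacent tissue and up to 3 in adjacent tissue against wild type, and the 3 nearest genes of each member (predicted symbols skipped). Some genes of the lists are not analysed here, and each count is over the members that were. Promoters are those of RefSeq, and neighbouring genes are from its GRCm38.p6 table.

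Tumour and adjacent arrays share animals by their titles. Over all genes, departures of arrays from their group mean correlated at 0.281 in the animal with 1 array in each tissue and from -0.0155 to 0.182 in the other, against -0.259 to -0.0881 between animals. Blocks by animal and by replicate number were fitted as alternatives. Others were the mean of all probe sets, no selection of probe sets, genes above the median mean, cyclic loess, median centring, a trend and robust prior, array weights, the bacterial difference as covariate, only the groups compared, animal as a random block, averaged arrays of an animal, and each array left out.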

Additional observations from a re-analysis of the deposited data

How the results depend on the processing

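Single arrays of the groups compared were left out in turn. Of the 10 genes 7 to 8 were then called in tumour against adjacent tissue and 7 to 8 in tumour against wild type. Adjacent tissue against wild type gave 2 to 5 calls, APC mutant 0 and Olfm4 mutant against wild type 0 to 2. The test of additivity gave 0, and 6 to 8 of 40 neighbouring pairs were called. The 2 in adjacent tissue came without wild type replicate 2 or adjacent replicate 2, and the 2 in Olfm4 mutant colon without wild type replicate 1. Shares of all genes called under the alternatives are not given beside the counts of this section. A change in a count is therefore not read as particular to the 10 genes. With the animal or the replicate number as a replicate block, 8 of the 10 genes were called in tumour against adjacent tissue, each on the same side of the threshold as without the block. With the arrays of 1 animal averaged 7 were called, since Scnn1g then had an adjusted p of 0.060. The bacterial 3′ minus 5′ difference as a covariate left 5 calls in tumour against adjacent tissue, 0 in tumour and 0 in adjacent tissue against wild type, and 2 neighbouring pairs. Adjacent tissue against wild type gave 2 calls under cyclic loess, 1 with only the groups compared and 1 without the 2 arrays lowest in Hoxd10, an alternative chosen after seeing the data. Olfm4 mutant against wild type gave 1 call with genes above the median mean, under cyclic loess, with median centring and with a trend and robust prior, and 2 with array weights. With the mean of all probe sets Slc12a2 was -0.00021 in tumour (adjusted p = 1.0) and -0.53 in adjacent tissue (adjusted p = 0.010) against wild type, Slc26a2 -1.13 (adjusted p = 0.00049) and Stk39 -0.045 in adjacent tissue. The probe sets averaged differ as described above. With the covariate Bsg was 0.67 in tumour against adjacent tissue (adjusted p = 0.050) and 0.17 in adjacent tissue against wild type, Ano1 -0.11 there, and 1417623_at of Slc12a2 0.13 in tumour against wild type. Of 1098 repeats over the 10 genes 1037 kept the call or the lack of one, 40 lost and 18 gained a call, and 3 reversed. A reversal was counted only where the main or the alternative fit made a call. Differences called in neither fit could therefore change sign among the 1037. Scnn1g in APC mutant against wild type, for example, ran from -0.51 to 0.88 and was never called. For Slc9a3 in tumour against adjacent tissue the adjusted p was 0.060 with the mean of probe sets and 0.11 with only the groups compared. Slc12a2 in tumour against adjacent tissue passed under cyclic loess (log2 0.34, adjusted p = 0.028) and with the mean of probe sets (log2 0.53, adjusted p = 0.0078). The median of all genes in adjacent tissue against wild type was 0.13, against 0.013 under cyclic loess and -0.072 with median centring, and in tumour against wild type it was 0.11, -0.0071 and -0.15. Where no cause is given, the cause was not tested.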
